A study of Mus musculus with 12 samples.

Results

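Ch25h, Cyp27a1, Cyp7b1, Gpr183 and Acod1 encode 3 oxysterol enzymes, 1 oxysterol receptor and the enzyme that makes itaconate. They are 5 of the 24465 genes listed in the deposited tables of a study of macrophage Klf6, and they were found by matching the Ensembl identifiers to these symbols. The genes were chosen with their genotype differences in both tables known, so those differences are given as descriptions with no test. RNA came from cultured bone marrow-derived macrophages of mice, which are grown from marrow progenitors. The 4 groups of 3 libraries were Klf6fl/fl:Lyz2cre cells given TNF at 10 ng/ml for 6 h, Lyz2cre cells given the same TNF, untreated Klf6fl/fl:Lyz2cre cells and untreated Lyz2cre cells. Klf6fl/fl:Lyz2cre cells are called Klf6-deleted here. Both genotypes carried the Lyz2cre allele, in which Cre recombinase is made from the lysozyme 2 gene, and Cre from this locus acts in macrophages and also in neutrophils. Only the Klf6-deleted cells carried the floxed Klf6 alleles. The mice's strain, sex and age are not stated, nor is whether replicate libraries derive from separate mice or cultures. P-values therefore measure only the spread between these samples, which may be technical.

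Oxysterols are oxidised forms of cholesterol that act both as metabolites and as signals. Ch25h adds a hydroxyl group to the side chain of cholesterol and makes 25-hydroxycholesterol, which keeps the SREBP2 transcription factor in the endoplasmic reticulum through the INSIG proteins, activates the nuclear receptors LXR alpha and beta, and in mouse macrophages is made after interferon signalling. Cyp27a1 is a mitochondrial enzyme that makes 27-hydroxycholesterol. Cyp7b1 adds a further hydroxyl group to either product, Hsd3b7 oxidises the result, and the doubly hydroxylated product of the Ch25h route is the ligand of Gpr183, a chemotactic receptor also called EBI2. Acod1, formerly Irg1, converts the mitochondrial metabolite cis-aconitate to itaconate, is strongly induced in activated macrophages, and its product inhibits succinate dehydrogenase and modifies KEAP1, the inhibitor of NRF2.

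The promoters of Ch25h and Acod1 are shown because these genes were higher in untreated and lower in TNF-treated Klf6-deleted cells than in Lyz2cre cells of the same treatment. Each is the 250 bases before the gene start in RefSeq (GRCm38.p6), printed 5′ to 3′ on the strand of the gene, with motif matches in capitals.
Ch25h, chr19:34475149-34475398, minus strand: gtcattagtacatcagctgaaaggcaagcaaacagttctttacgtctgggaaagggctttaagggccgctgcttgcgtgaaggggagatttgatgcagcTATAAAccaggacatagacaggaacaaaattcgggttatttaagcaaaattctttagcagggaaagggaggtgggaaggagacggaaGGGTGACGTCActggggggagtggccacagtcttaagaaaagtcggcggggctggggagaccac
Acod1, chr14:103046762-103047011, plus strand: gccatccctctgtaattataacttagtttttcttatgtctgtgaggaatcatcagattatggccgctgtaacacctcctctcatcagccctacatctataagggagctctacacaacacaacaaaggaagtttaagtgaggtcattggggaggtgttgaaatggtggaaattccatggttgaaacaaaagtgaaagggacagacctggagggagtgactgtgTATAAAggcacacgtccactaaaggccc
In the Ch25h promoter the capitals mark a TATAAA match from -151 to -146 and a run in which a CACCC match on the opposite strand (-64 to -60) overlaps the cyclic AMP response element TGACGTCA (-61 to -54). In the Acod1 promoter they mark a TATAAA match from -28 to -23. The letters searched on both strands were GAAANNGAAA (an interferon-stimulated response element core), TTCNNNGAA (the gamma-activated sequence of interferon signalling), the kappaB consensus, CACCC and GGGCGG (letters bound by Krüppel-like and SP factors), TATAAA and TGACGTCA. Among 32851 promoters of this length, 2.98% held the first, 7.02% the second, 7.25% the kappaB consensus, 52% CACCC, 32.7% GGGCGG, 12.4% TATAAA and 1.55% TGACGTCA. A match is a match of letters and no measure of binding. The Cyp27a1 promoter held 1 GGGCGG match, from -28 to -23, and the Gpr183 promoter held none of the motifs. Cyp7b1 was not in the promoter table.

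The positions of the genes follow GENCODE vM21 (GRCm38). Ch25h lies at chr19:34473778-34475164 on the minus strand and is a single exon of 1387 bases. It shares 159 exonic bases with Gm26902 on the opposite strand, and without a stated use of strand in the counting the reads of the overlap could belong to either gene. Cyp27a1 lies at chr1:74713574-74737892 (plus strand, 7 exons) and Cyp7b1 at chr3:18071950-18243338 (minus strand, 6 exons). Gpr183 lies at chr14:121952551-121965195 (minus strand, 3 exons) inside Ubac2 on the opposite strand, with which it shares 0 exonic bases. Acod1 lies at chr14:103046977-103056573 (plus strand, 5 exons).

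Between 16.9 and 23.4 M reads per library fell on genes. Klf6 averaged 4161 ± 43.4 normalized counts in Klf6-deleted and 7447 ± 255 in Lyz2cre cells with TNF, and 7101 ± 269 in Klf6-deleted and 10118 ± 174 in Lyz2cre cells without it (SD, n = 3 each). The floxed exons are not given, and a value per gene also counts exons outside them. Lyz2, the gene at the Cre locus, averaged 931 ± 108 in Klf6-deleted and 1656 ± 45.8 in Lyz2cre cells with TNF. Without TNF it averaged 244 ± 39.3 in Klf6-deleted and 856 ± 26.5 in Lyz2cre cells. The number of Lyz2cre alleles in each genotype is not given. Macrophage markers such as Adgre1 and Csf1r were abundant in all libraries, and the 10 macrophage markers together took 7730 to 8256 CPM (reads per M reads on genes) in untreated Klf6-deleted libraries and 13154 to 13208 CPM in untreated Lyz2cre libraries. The 18 stromal markers, among them the collagen genes Col1a1, Col1a2 and Col3a1, together took 3501 to 3737 CPM in untreated Klf6-deleted libraries, against 208 to 245 CPM in untreated Lyz2cre libraries. With TNF they took 243 to 288 CPM in Klf6-deleted and 57.1 to 72.1 CPM in Lyz2cre libraries. All 16 stromal markers tested in the untreated table were higher in Klf6-deleted cells, where 27.6% of all tested genes were. With TNF 10 of 13 were higher and 1 lower, where 26.5% of all tested genes were higher. Some passed the filter of 1 CPM only through the Klf6-deleted group, so their calls are no independent support. Examples are Lepr without TNF (61.6 normalized counts in Klf6-deleted and 3.36 in Lyz2cre cells) and Pdgfra with TNF (66.3 and 10.5). Lum, which was not tested, averaged 7.15 and 8.22 without TNF. None of the 18 was at 0 in any group. The 9 endothelial markers together took 71.7 to 76.7 CPM in Klf6-deleted and 101 to 120 CPM in Lyz2cre libraries with TNF, and 94.0 to 105 CPM in Klf6-deleted and 40.3 to 45.6 CPM in Lyz2cre libraries without it. With TNF the defining marker Cldn5 was at 0 in both genotypes and Emcn in Lyz2cre cells. Kdr, a growth factor receptor of endothelial cells, had the largest mean level among them, with log2 differences of -1.88 with TNF and 1.30 without it. With TNF the list was split, with Cdh5 lower like Kdr and Vwf higher. Cdh5 averaged 6.28 ± 1.30 normalized counts in Klf6-deleted and 30.8 ± 7.74 in Lyz2cre cells with TNF. It passed the filter only through the Lyz2cre group, so its call is no independent support. Vwf averaged 648 ± 45.7 normalized counts in Klf6-deleted and 298 ± 43.8 in Lyz2cre cells with TNF. Pecam1 and Tie1, below the filter there, averaged 6.20 and 2.47 in Klf6-deleted and 3.41 and 0.382 in Lyz2cre cells. In bulk RNA, fewer cells of a type and less RNA per cell cannot be told apart.

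Of the 5 genes, Ch25h had the largest shift in its genotype difference between the tables, lower with TNF and higher without it in Klf6-deleted cells. Its values in the TNF table were 122, 157 and 129 normalized counts in Klf6-deleted libraries, against 6605.5, 4919.9 and 6770.6 in Lyz2cre libraries. The groups were far apart, with the highest Klf6-deleted library far below the lowest Lyz2cre library. The mean was 44.8-fold lower, or -5.47 on the log2(value + 1) scale (SE 0.11). Only 3 of the 11717 genes tested with TNF had a lower log2 difference. Cyp27a1 and Acod1 stood at places 1075 and 1132 from the lowest there. The genes were chosen with these differences known, so nothing is read from the places. Without TNF the Ch25h values were 24.2, 38.9 and 22.7 in Klf6-deleted libraries, from 96 reads in all. In Lyz2cre libraries they were 4.38, 8.47 and 4.38, from 15 reads in all. Here every Klf6-deleted library was above every Lyz2cre library, and the log2 difference was 2.15 (SE 0.43). The ratio of the summed reads, corrected for the size factors, was 4.95, with a 95% counting interval of 2.85 to 9.18. Ch25h passed the filter of 1 CPM in 3 libraries without TNF only through the Klf6-deleted group, and with a pseudocount of 10 in place of 1 its untreated log2 difference was 1.28. The antisense gene Gm26902 averaged 4.07 normalized counts in Klf6-deleted and 53.1 in Lyz2cre cells with TNF, in the direction of Ch25h. Without TNF its means of 4.33 in Klf6-deleted and 2.30 in Lyz2cre cells also lay in that direction. Those untreated values overlapped between genotypes and came from 15 reads in Klf6-deleted and 6 in Lyz2cre libraries. The summed stromal markers were likewise higher in the same untreated Klf6-deleted libraries. The part of either in the result was not tested.

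Cyp27a1 was lower in Klf6-deleted cells with and without TNF. Untreated libraries had 1042, 1056 and 1062 normalized counts in the Klf6-deleted group, against 3155, 3200 and 3239 in the Lyz2cre group. Replicates of a group lay close together and the groups were well separated. The mean was 3.04-fold lower (log2 difference -1.60, SE 0.042). With TNF the values were 123, 125 and 107 in Klf6-deleted libraries and 212, 195 and 211 in Lyz2cre libraries, again without overlap. The log2 difference was -0.79 (SE 0.13), which was -0.47 when the values were scaled to total reads. The 10 macrophage markers, of which 9 were lower and 1 higher in untreated Klf6-deleted cells, moved in the same direction in the untreated table. Of all genes tested there 29.3% were lower. Scaled to total reads, 6 of the 10 markers were lower and 1 higher. With TNF 5 of the 10 were higher and 5 lower, and together they took 9862 to 9904 CPM in Klf6-deleted and 10391 to 10517 CPM in Lyz2cre libraries. Their part in the result was not tested.

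Cyp7b1 stayed close to the detection limit. Untreated Klf6-deleted libraries had 14, 6 and 8 reads, against 0, 1 and 1 in untreated Lyz2cre libraries. The groups did not overlap, and the ratio of the summed reads, corrected for the size factors, was 10.8 with a counting interval of 2.73 to 93.7. With TNF the libraries had 1, 8 and 4 reads in the Klf6-deleted group and 6, 0 and 0 in the Lyz2cre group. These groups overlapped, and the ratio of 1.93 had an interval of 0.684 to 6.19. Cyp7b1 passed the filter in neither table. The untreated Klf6-deleted libraries with more Cyp7b1 reads are those with the summed stromal markers at 3501 to 3737 CPM, and the part of these markers in the result was not tested.

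Gpr183, the receptor of the route, was moderately lower in untreated Klf6-deleted cells. The values were 175, 189 and 190 normalized counts in Klf6-deleted libraries, against 304, 246 and 290 in Lyz2cre libraries. The groups did not overlap, with a log2 difference of -0.59 (SE 0.11). Ubac2, the gene that Gpr183 lies inside, averaged 688 ± 10.4 in Klf6-deleted and 842 ± 51.8 in Lyz2cre cells in the same libraries. Of the 10 macrophage markers 9 were lower there, or 6 when scaled to total reads. Summed dendritic markers were also lower, at 13.3 to 18.5 CPM in Klf6-deleted and 26.7 to 31.7 CPM in Lyz2cre libraries. So were T and NK cell markers, at 4.65 to 5.77 CPM in Klf6-deleted and 9.37 to 10.7 CPM in Lyz2cre libraries. B cell markers were higher, at 19.2 to 23.8 CPM in Klf6-deleted and 4.59 to 6.51 CPM in Lyz2cre libraries. The part of any of these in the result was not tested. With TNF Gpr183 was near the filter in both genotypes, at 20.5, 14.5 and 10.7 normalized counts in Klf6-deleted and 15.9, 19.6 and 13.8 in Lyz2cre libraries. The groups overlapped, the count ratio was 0.928 (95% counting interval 0.609 to 1.42), and leaving out 1 library at a time gave log2 differences of -0.356 to 0.0852, with both signs.

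Acod1 was the most abundant of the 5 genes with TNF. TNF-treated Klf6-deleted libraries had 35246, 35212 and 34627 normalized counts, against 60932, 55353 and 62142 in Lyz2cre libraries. Every Klf6-deleted library was lower, and the mean was 1.70-fold lower (log2 difference -0.76, SE 0.045), or -0.44 with values scaled to total reads. Without TNF the direction was the opposite, with 387, 426 and 497 normalized counts in Klf6-deleted and 51.4, 61.7 and 15.3 in Lyz2cre libraries. The groups were again separate, and the mean was 10.2-fold higher. The third Lyz2cre library was lower than the other 2, and leaving out 1 library at a time gave log2 differences of 2.92 to 3.90 around 3.53 (SE 0.32). The summed stromal markers were higher in the same untreated Klf6-deleted libraries as Acod1. The summed endothelial markers were, like Acod1 and Ch25h, lower with TNF and higher without it in Klf6-deleted than in Lyz2cre cells. With TNF this held for the sum, for Kdr and for Cdh5, which passed the filter only through the Lyz2cre group. Kdr had the largest mean of the list in Lyz2cre cells with TNF (540 ± 5.51 normalized counts in Klf6-deleted and 2010 ± 300 in Lyz2cre cells). Vwf was higher, as were the means of Pecam1, Tie1, Tek, Emcn and Egfl7, which were below the filter. The part of these markers in either result was not tested.

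**Figure D1:**
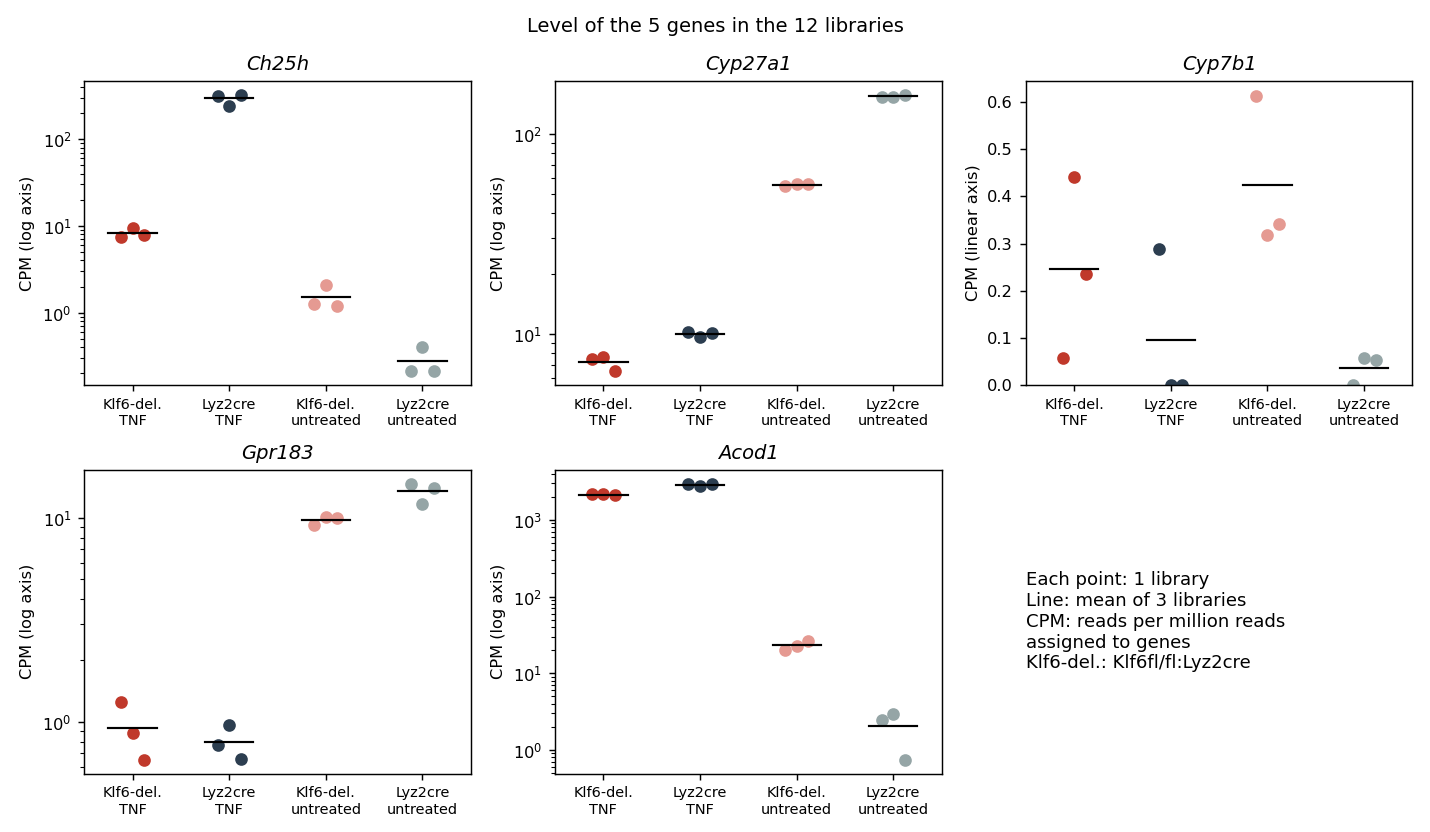
CPM (log axis, linear for Cyp7b1) of the 5 genes in the 4 groups, with a point for each library and a line at the mean of 3. Ch25h and Acod1 were lower with TNF and higher without it in Klf6-deleted cells, Cyp27a1 was lower in both, and Cyp7b1 and Gpr183 overlapped with TNF.

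All 5 genes had groups without overlap in the untreated table, 4 of them among the genes passing the filter, where 62.3% of the tested genes did so (30.1% with every Klf6-deleted library higher and 32.2% lower). Over all listed genes the share was 42.1%. With TNF, 3 of the 5 were without overlap, where 63.2% of tested genes were (29.9% with every Klf6-deleted library higher and 33.3% lower; 41.9% of all listed genes). Ch25h and Acod1 were without overlap in opposite directions in the 2 tables, higher untreated and lower with TNF, as were 7.92% of the genes tested in both. The genes were chosen from these same contrasts, so nothing is read from the counts.

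Comparing TNF with untreated cells needed a scale that runs across the tables, which were normalized separately, so CPM is used here with no test. Ch25h averaged 8.29 ± 1.12 CPM with TNF and 1.51 ± 0.48 CPM without it in Klf6-deleted cells, a 5.49-fold higher level. In Lyz2cre cells it averaged 295 ± 45.3 CPM with TNF and 0.276 ± 0.112 CPM without it, a ratio of 1070. Acod1 was 92.5-fold higher with TNF in Klf6-deleted cells (2130 ± 22.1 CPM with TNF against 23.0 ± 2.94 CPM without it) and 1399-fold higher in Lyz2cre cells (2881 ± 130 CPM with TNF against 2.06 ± 1.17 CPM without it). For both genes the ratio was therefore smaller in Klf6-deleted cells, and the untreated level in the denominator was higher there. Cyp27a1 was 7.71-fold lower with TNF in Klf6-deleted cells (7.21 ± 0.617 CPM with TNF against 55.6 ± 0.67 CPM without it) and 15.4-fold lower in Lyz2cre cells (9.97 ± 0.322 CPM with TNF against 154 ± 2.05 CPM without it). Gpr183 was 10.5-fold lower with TNF in Klf6-deleted cells and 16.9-fold lower in Lyz2cre cells. The 9 neutrophil markers together were also lower with TNF, at 9.22 to 11.6 CPM with TNF against 419 to 446 CPM without it in Klf6-deleted libraries and 12.3 to 13.6 CPM with TNF against 509 to 566 CPM without it in Lyz2cre libraries. With TNF Ly6g and Retnlg were at 0 in both genotypes and Mpo in Lyz2cre cells, and the part of these markers in the falls of Cyp27a1 and Gpr183 was not tested. Cyp7b1 overlapped between TNF-treated and untreated libraries in both genotypes.

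Levels were ordered within a group by TPM, which divides reads by gene length and scales each library to one total. With TNF, Acod1 was first in both genotypes, at 2812 ± 15.7 TPM in Klf6-deleted and 3796 ± 154 TPM in Lyz2cre cells. Ch25h was second, at 20.7 ± 2.79 TPM in Klf6-deleted and 735 ± 110 TPM in Lyz2cre cells, followed by Cyp27a1 (11.5 ± 0.834 TPM in Klf6-deleted and 15.9 ± 0.471 TPM in Lyz2cre cells), Gpr183 and Cyp7b1. No neighbours in these TNF orders overlapped between libraries. In untreated Klf6-deleted cells the order was Cyp27a1 (87.0 ± 0.717 TPM), Acod1 (29.9 ± 3.71), Gpr183 (11.5 ± 0.514), Ch25h (3.71 ± 1.17) and Cyp7b1 (0.668 ± 0.262), without overlap. In untreated Lyz2cre cells Cyp27a1 was first at 240 ± 4.58 TPM, then Gpr183 (15.8 ± 1.96), and Acod1 (2.65 ± 1.49) and Ch25h (0.671 ± 0.264) overlapped. The RNA levels of the cholesterol hydroxylases also shifted relative to each other, and enzyme amounts were not measured. The ratio of Cyp27a1 to Ch25h TPM had a median of 0.528 in TNF-treated Klf6-deleted libraries (0.509 to 0.643) and 0.0205 in TNF-treated Lyz2cre libraries (0.0199 to 0.0252). Without TNF it had a median of 27.5 in Klf6-deleted (17.3 to 29.8) and 460 in Lyz2cre libraries (241 to 472), the latter resting on 15 Ch25h reads.

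**Figure D2:**
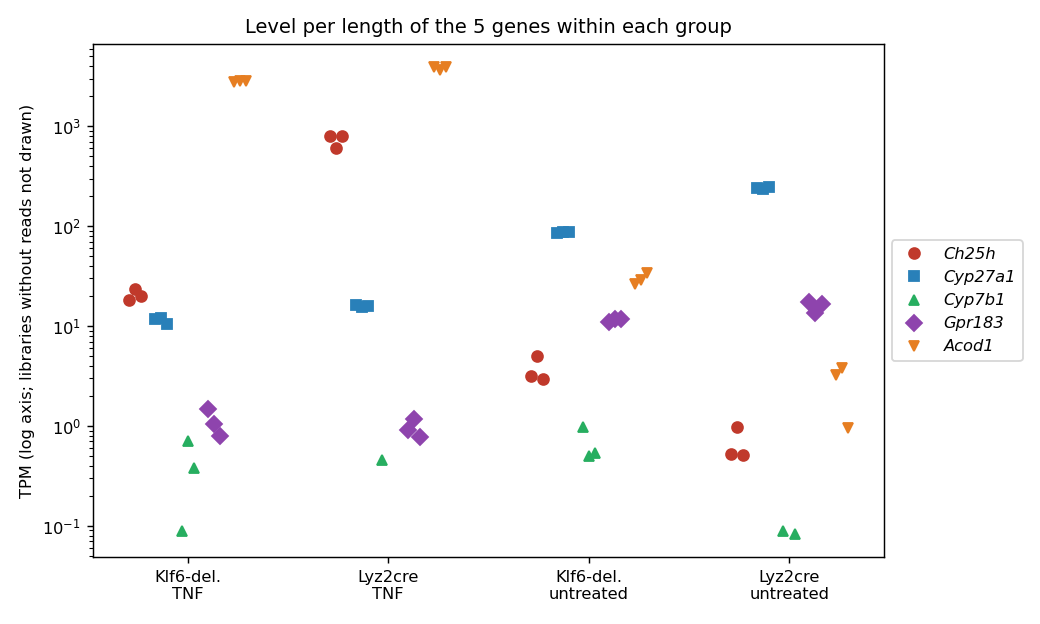
TPM (log axis) of the 5 genes in each group, a point for each library, with libraries without reads not drawn. Acod1 leads in both TNF groups and Cyp27a1 in both untreated groups, and Ch25h ranks above Cyp27a1 only with TNF.

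The genes whose 12-library profile lay nearest to each of the 5 were found by the root mean square difference of centred log2(CPM + 1) values among 11409 genes. The nearest to Ch25h were Cxcl10 (0.384), an interferon-induced chemokine, Gbp5 (0.570), an interferon-induced GTPase, and Ifit1bl1 (0.729). Without TNF Gbp5 was higher in Klf6-deleted than in Lyz2cre cells (9.67 and 3.62 CPM), as Ch25h was. Cxcl10 was near equal there (5.84 and 5.82 CPM) and Ifit1bl1 slightly lower (3.87 and 4.27 CPM). The scale understates changes of low values, such as those of Ch25h without TNF. The nearest to Cyp27a1 were Fcrls (0.176), Rnf144b (0.249) and Slc9a9 (0.252). The nearest to Gpr183 were Pros1 (0.120), which encodes protein S, Zcchc24 (0.189) and Kctd12b (0.198). Acod1 had more distant neighbours, which were Ptges (0.934), the prostaglandin E synthase, Ifi205 (1.17) and Clec4e (1.28), the receptor Mincle. Cyp7b1, nearly flat on this scale, had the flat neighbours Dclre1a (0.122), Ipo4 (0.126) and Shq1 (0.128).

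Genes around the 5 were tested with limma and adjusted over all genes. In these lists, higher and lower describe Klf6-deleted relative to Lyz2cre cells within the TNF or the untreated table, values are normalized counts as mean ± SD of 3 libraries, and folds are on the log2(value + 1) scale. Over all genes, 56.9% of the 12715 genes tested without TNF and 57.3% of the 11717 with it were called at an adjusted p below 0.05. By direction, 27.6% were higher and 29.3% lower without TNF, and 26.5% were higher and 30.8% lower with it. These shares are the background for the counts of every list below. Among interferon, NF-kappaB and related factors listed as regulators of Ch25h or Acod1, 10 of 28 tested were higher and 15 lower in untreated Klf6-deleted cells. With TNF 4 of 29 were higher and 22 lower, where 30.8% of all tested genes were lower, and the median log2 difference was -0.49 against -0.01 for all genes. Scaled to total reads, these counts were 10 and 12 untreated and 9 and 17 with TNF. Stat2, a transcription factor of interferon signalling, averaged 3119 ± 101 normalized counts in Klf6-deleted and 16487 ± 1571 in Lyz2cre cells with TNF. Without TNF it averaged 4597 ± 121 in Klf6-deleted and 2196 ± 74.4 in Lyz2cre cells. Its difference thus changed sign between the tables, by -3.46 on the log2 scale (limma interaction, adjusted p = 1.5e-17). Irf7, an interferon-induced factor, had an interaction of -3.46, and Irf1 of -2.60. These 3 factors were called higher without TNF and lower with it, as were 6.9% of the 11425 genes tested in both tables. Ifnb1, the gene of interferon beta, averaged 0.614 ± 0.532 normalized counts in Klf6-deleted and 26.1 ± 2.42 in Lyz2cre cells with TNF. It passed the filter only through the Lyz2cre group, so its call among the 22 lower factors is no independent support. Atf3, a stress-response factor that restrains Ch25h in mouse macrophages, was higher in Klf6-deleted cells in both tables, at 5367 ± 121 in Klf6-deleted and 2918 ± 72.0 in Lyz2cre cells with TNF and 7531 ± 329 in Klf6-deleted and 5925 ± 354 in Lyz2cre cells without it.

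**Figure D3:**
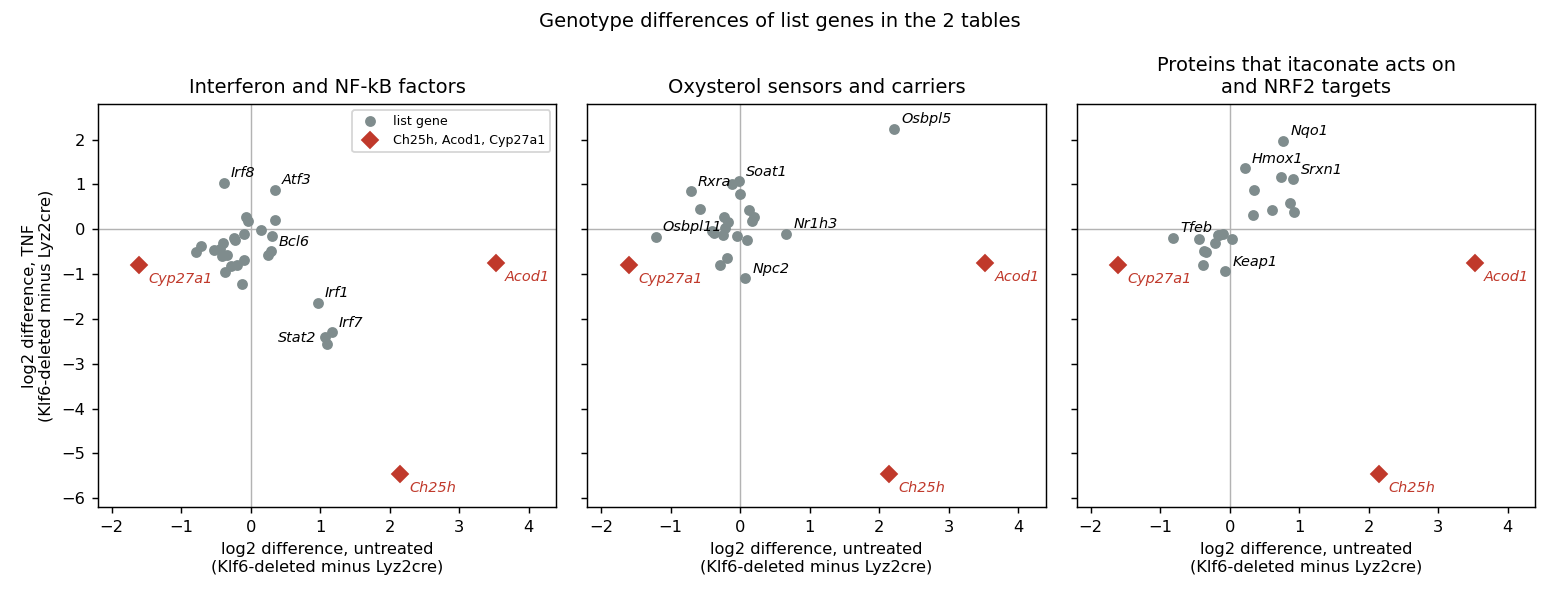
Log2 genotype differences (Klf6-deleted minus Lyz2cre) in the untreated (x axis) and TNF (y axis) tables, with a grey point for each gene of 3 lists and red diamonds for Ch25h, Acod1 and Cyp27a1. Stat2, Irf1 and Irf7 lie in the lower right with Ch25h and Acod1, Nqo1, Hmox1 and Srxn1 in the upper right; Irf8, Bcl6 and Keap1 are labelled after their values were seen.

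Of the other genes of oxysterol production and clearance, 2 of 8 tested were higher and 2 lower without TNF, and 3 of 7 were higher and 2 lower with TNF, where 1 was higher without Klf6-deleted replicate 2. Scaled to total reads these counts were 5 and 2, and 5 and 1. Por, the reductase that passes electrons to microsomal cytochrome P450 enzymes such as Cyp7b1, was higher with TNF (4649 ± 106 normalized counts in Klf6-deleted and 2006 ± 88.7 in Lyz2cre cells, log2 1.21, SE 0.05, limma adjusted p = 2.0e-12) and without it (16768 ± 77.1 in Klf6-deleted and 11623 ± 658 in Lyz2cre cells). Fdx1 and Fdxr carry electrons to mitochondrial enzymes such as Cyp27a1. Fdx1 averaged 159 ± 6.82 in Klf6-deleted and 130 ± 31.8 in Lyz2cre cells with TNF and did not pass the test in either table (limma adjusted p = 0.11 with TNF and 0.12 without it). Fdxr was 1.38-fold higher with TNF (limma adjusted p = 0.048), a call lost with DESeq2 and when Klf6-deleted replicate 2 or 3 or Lyz2cre replicate 1 or 3 was left out (log2 differences 0.316 to 0.506). Stard3, a late endosomal sterol carrier, was lower in Klf6-deleted cells, at 1279 ± 56.9 in Klf6-deleted and 4157 ± 342 in Lyz2cre cells with TNF and 1439 ± 52.6 in Klf6-deleted and 1834 ± 26.3 in Lyz2cre cells without it. Hsd11b1, which also reduces an oxysterol, passed the filter without TNF only through the Klf6-deleted group, at 34.5 ± 6.36 in Klf6-deleted and 12.1 ± 6.88 in Lyz2cre cells, and it is 1 of the 2 genes counted as higher there. Hsd3b7, the step after Cyp7b1, was below the filter, at 12.7 ± 4.00 in Klf6-deleted and 5.99 ± 3.15 in Lyz2cre cells with TNF and 10.2 ± 0.644 in Klf6-deleted and 6.80 ± 0.404 in Lyz2cre cells without it.

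Among oxysterol sensors and binding proteins, 5 of 23 were higher and 11 lower without TNF, and 10 of 22 were higher and 6 lower with TNF. Scaled to total reads, which shifts all genes, these were 9 and 7, and 18 and 3. Relative to the median of all genes the scaled median log2 difference of the list was -0.10 without TNF and 0.11 with it. Nr1h3, which encodes LXR alpha, was higher in untreated Klf6-deleted cells (568 ± 50.9 in Klf6-deleted and 357 ± 14.6 in Lyz2cre cells, limma adjusted p = 9.4e-07), and with TNF averaged 3150 ± 80.7 in Klf6-deleted and 3381 ± 305 in Lyz2cre cells (limma adjusted p = 0.16). Nr1h2, which encodes LXR beta, was lower with TNF by 0.16 on the log2 scale, and higher by 0.17 when scaled to total reads. Rxra, the LXR partner, was lower without TNF (1736 ± 91.5 in Klf6-deleted and 2848 ± 80.3 in Lyz2cre cells) and higher with it (913 ± 56.8 in Klf6-deleted and 506 ± 46.3 in Lyz2cre cells), an interaction of 1.57 (limma adjusted p = 2.0e-11). Soat1, which esterifies cholesterol, was 2.10-fold higher with TNF (6631 ± 256 in Klf6-deleted and 3162 ± 189 in Lyz2cre cells). Npc2, a lysosomal sterol carrier, was 2.14-fold lower with TNF (20014 ± 864 in Klf6-deleted and 42826 ± 3295 in Lyz2cre cells). Osbpl5, an oxysterol-binding protein, was 4.63-fold higher without TNF. With TNF it passed the filter only through the Klf6-deleted group, at 49.6 ± 6.76 in Klf6-deleted and 10.00 ± 3.46 in Lyz2cre cells.

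LXR targets were mostly higher with TNF, 9 of 13 against 2 lower, where 26.5% of all tested genes were higher. Without TNF 3 of 13 were higher and 4 lower. Scaled counts were 11 and 2 with TNF and 5 and 4 without it. Scd2, a fatty acid desaturase, was 10.9-fold higher with TNF (941 ± 54.8 in Klf6-deleted and 86.4 ± 15.6 in Lyz2cre cells). Abca1, the cholesterol exporter, was lower without TNF (8508 ± 518 in Klf6-deleted and 15725 ± 515 in Lyz2cre cells) and 1.12-fold higher with it (22718 ± 841 in Klf6-deleted and 20346 ± 907 in Lyz2cre cells), an interaction of 1.05. Pltp, a phospholipid carrier, was lower in both tables, 1.59-fold with TNF and 2.48-fold without it. Of SREBP2 targets, 2 of 21 were higher (1 without Klf6-deleted replicate 1 or 3 or Lyz2cre replicate 2 or 3) and 11 lower without TNF, and 3 of 20 were higher and 10 lower with TNF. Scaled to total reads these were 3 and 8, and 6 and 5, so with TNF more were higher than lower under that scaling, which shifts all genes. Relative to the median of all genes the scaled median log2 difference of the list was -0.23 without TNF and -0.29 with it. Sc5d, an enzyme late in cholesterol synthesis, was 1.38-fold lower with TNF (limma adjusted p = 0.0048, a call lost when scaled to total reads) and 1.49-fold lower without it. Dhcr7 was lower without TNF and 1.74-fold higher with it, an interaction of 1.16. Insig1, which holds SREBP2 in place, was lower without TNF (1360 ± 43.5 in Klf6-deleted and 1761 ± 9.06 in Lyz2cre cells), and with TNF averaged 497 ± 47.6 in Klf6-deleted and 525 ± 8.00 in Lyz2cre cells (limma adjusted p = 0.41).

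In the supply and handling of itaconate, 3 of 17 genes were higher and 6 lower without TNF, and 7 of 17 higher and 4 lower with TNF, where 2 were lower without Klf6-deleted replicate 3. Scaled to total reads these were 7 and 3, and 14 and 0, with medians of -0.034 without TNF and 0.080 with it relative to all genes. Slc13a3, a carrier that takes up dicarboxylates, was higher with TNF (791 ± 15.8 in Klf6-deleted and 570 ± 11.7 in Lyz2cre cells) and without it (408 ± 25.4 in Klf6-deleted and 218 ± 34.3 in Lyz2cre cells). Abcg2, which exports itaconate, was 1.90-fold higher with TNF and 1.32-fold higher without it. Slc25a10, the mitochondrial dicarboxylate carrier, was 1.31-fold lower with TNF and 1.83-fold lower without it (972 ± 35.9 in Klf6-deleted and 1782 ± 39.9 in Lyz2cre cells). Idh2 was 1.59-fold higher with TNF (582 ± 51.5 in Klf6-deleted and 365 ± 12.9 in Lyz2cre cells). Idh1 was lower without TNF (3494 ± 195 in Klf6-deleted and 6066 ± 132 in Lyz2cre cells) and 1.10-fold higher with it, an interaction of 0.93. The call of Idh1 with TNF was lost when Klf6-deleted replicate 1 or 2 or Lyz2cre replicate 1 or 3 was left out (log2 differences 0.0973 to 0.142).

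Among proteins that itaconate acts on and their NRF2 targets, 9 of 20 were higher and 9 lower without TNF, and 9 were higher and 8 lower with TNF (10 and 5, and 13 and 4, scaled to total reads). All 5 NRF2 targets of the list, Hmox1, Nqo1, Gclm, Srxn1 and Txnrd1, were higher in both tables, where 27.6% of all tested genes were higher without TNF and 26.5% with it. Nfe2l2, the gene of NRF2 itself, singled out after its values were seen, was lower in both tables, at 9501 ± 81.4 in Klf6-deleted and 10975 ± 306 in Lyz2cre cells with TNF and 5126 ± 314 in Klf6-deleted and 6991 ± 228 in Lyz2cre cells without it. With TNF its sign turned when the values were scaled to total reads. Hmox1, heme oxygenase, was 2.56-fold higher with TNF (48732 ± 1331 in Klf6-deleted and 19067 ± 1616 in Lyz2cre cells) and 1.16-fold higher without it. Nqo1 was 3.94-fold higher with TNF and 1.71-fold higher without it. Srxn1, which repairs oxidised peroxiredoxins, was 2.16-fold higher with TNF and 1.89-fold higher without it, and Gclm, a subunit of the enzyme that starts glutathione synthesis, was 2.25-fold and 1.67-fold higher. Gapdh and Ldha, glycolytic enzymes that itaconate or its derivatives modify, were higher in both tables, Ldha 1.31-fold with TNF and 1.90-fold without it.

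Among chemotactic receptors and regulators of their signalling related to Gpr183, 7 of 19 were higher and 9 lower without TNF, and 7 of 20 were higher and 12 lower with TNF (8 and 7, and 8 and 9, scaled to total reads, with medians of -0.058 without TNF and -0.37 with it relative to all genes). Rgs16, which switches off receptor-coupled G proteins, was lower with TNF (61.7 ± 9.96 in Klf6-deleted and 209 ± 17.7 in Lyz2cre cells) and higher without it (210 ± 26.2 in Klf6-deleted and 40.3 ± 7.67 in Lyz2cre cells), an interaction of -4.11 (limma adjusted p = 1.9e-11). Ccr2, a monocyte chemokine receptor, likewise was lower with TNF (284 ± 33.5 in Klf6-deleted and 471 ± 55.4 in Lyz2cre cells) and higher without it (4102 ± 344 in Klf6-deleted and 1830 ± 47.4 in Lyz2cre cells). S1pr1, a receptor for sphingosine phosphate, had the opposite order, higher with TNF (1002 ± 40.8 in Klf6-deleted and 257 ± 11.4 in Lyz2cre cells) and lower without it (1442 ± 123 in Klf6-deleted and 1952 ± 53.9 in Lyz2cre cells), an interaction of 2.40. P2ry14, a receptor for nucleotide sugars, was 4.47-fold lower with TNF and Gpr84, a receptor for medium-chain fatty acids, was 3.88-fold lower.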

How the data were processed

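Total RNA of 12 libraries was prepared from 150 ng with a stranded kit after removal of ribosomal RNA, per the labels' protocols. Per the submitters' processing notes, Cufflinks, GRCm39 and mm10 were involved, without stated roles. Which aligner, counter, annotation and strand setting were used is not given in the sources used here. The authors deposited an untreated and a TNF table, with a normalized signal for every gene in every library. Each deposited signal value was a whole number of reads times 1 step per library (tolerance 0.001 reads), and these steps matched median-of-ratios size factors computed for that table alone, so normalization did not run across the tables. The values are called normalized counts. Reads recovered by the steps gave CPM, and TPM with vM21 exon lengths. All 12 value columns were used, and symbols matched 22867 of 22896 and 21411 of 21437 identifiers.

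Genotypes were compared within a table by limma-trend (limma 3.58.1) on log2(value + 1), a scale that understates the change of low genes, keeping genes that reached 1 CPM in 3 or more libraries, with Benjamini-Hochberg adjustment over all genes tested. The interaction used all 12 libraries. Counting intervals (95%, exact) cover counting error only, since reads carry no molecular identifiers. The members and gene lists were chosen with earlier results of these data known. Named list genes were, for each list, up to 4 called members with the largest log2 differences in each table and a set of enzymes and factors named whether called or not, and most are given in the text. Alternatives were edgeR 4.0.16 (quasi-likelihood, TMM), DESeq2 1.42.0, the replicate number as a block, leaving out single libraries, and other pseudocounts, filters and scalings. Scripts ran in R 4.3.3 and Python 3.11.15 and were tested on simulated data. Replicates with the same number in both genotypes had correlations of their deviations of 0.152, -0.0378 and 0.158 untreated and -0.0209, -0.0123 and -0.0295 with TNF. Those with unlike numbers had -0.23 to 0.114 untreated and -0.00153 to 0.0224 with TNF. The main comparison did not pair replicates, and whether equal numbers share a batch was not tested. The results of a few named genes are not reported here.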

Additional observations from a re-analysis of the deposited data

Results flagged for a closer look

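The genotype difference of Ch25h changed by -7.61 on the log2 scale between the TNF and the untreated table, and that of Acod1 by -4.29. The untreated part for Ch25h, 2.15, came from 96 reads in Klf6-deleted and 15 in Lyz2cre libraries. It was 1.28 with a pseudocount of 10, and the TNF part was -5.14 when scaled to total reads. For both Ch25h and Acod1 every Klf6-deleted library was lower with TNF and higher without it than every Lyz2cre library. The differences between the tables were not tested because the genes were chosen from them. For list genes the genotype difference changed sign between the tables and the interaction passed the limma test. It was -4.11 for Rgs16, -3.46 for Irf7 and for Stat2, -2.6 for Irf1 and -1.89 for Ccr2, which were higher without and lower with TNF in Klf6-deleted cells. It was 2.4 for S1pr1, 1.6 for Mertk, 1.57 for Rxra, 1.16 for Dhcr7, 1.05 for Abca1 and 0.93 for Idh1, which were lower without and higher with TNF. Of all 11425 genes tested for the interaction, 52.2% passed.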

How the results depend on the processing

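Scaling to total reads moved the median log2 difference of all genes by 0.133 untreated and 0.326 with TNF. Untreated calls became 5122 higher and 2408 lower, in place of 3508 and 3722, TNF calls 7038 and 1716, in place of 3103 and 3608, and interaction calls 4781 and 1889. Under it the log2 differences were -5.14 (Ch25h, TNF), -1.47 and -0.468 (Cyp27a1, untreated and TNF), -0.459 (Gpr183, untreated) and -0.435 (Acod1, TNF). The sign turned for Nr1h2 (0.0912 untreated, 0.168 TNF), Soat1 (0.117), Slc25a1 (0.0197) and Cd68 (0.000512) untreated, and for Nr1h3 (0.229), Insig1 (0.244), Scp2 (0.148), Osbpl11 (0.157) and Tfeb (0.139) with TNF. A 10 CPM filter left 2293 higher untreated and 1943 higher with TNF, with fewer genes tested. A pseudocount of 10 gave 1.28 for Ch25h and 0.733 for Cyp7b1 untreated. Log2 ratios of TNF over untreated were -3.15 (Cyp27a1) and 6.33 (Acod1) in Klf6-deleted cells from the deposited values, and -3.65 (Cyp27a1) and -3.79 (Gpr183) in Lyz2cre cells with size factors over 12 libraries. The cause of these shifts was not tested.

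Leaving out 1 library at a time gave 6622 to 6857 calls untreated (higher 3224 to 3366, lower 3397 to 3530), 6047 to 6619 with TNF (2710 to 3058, 3275 to 3561) and 5564 to 5984 for the interaction (2792 to 3026, 2771 to 2958). The replicate number as a block gave 7284 calls untreated, 6473 with TNF and 5758 for the interaction, and the samples share only a number. Depth limits Cyp7b1 in all groups, Gpr183 with TNF and Ch25h untreated.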
